A study of Mus musculus with 28 samples.

Results

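The regions described here are the accessible promoters of single protein-coding genes in mouse Müller cells, read from 2 deposited lists of ATAC-seq peaks, 1 for control mice and 1 for db/db mice. Rows of a list that overlapped on chromosomes 1 to 19 were merged into 1 region, and a region was a member when its summit, the position of its highest row, lay within 1000 bp of a transcript start of exactly 1 protein-coding gene in GENCODE M21 (mm10). In the control list 11976 of 45198 regions (26.5%) were members, and in the db/db list 13658 of 63598 (21.5%). The members lay at 10082 and 10773 genes, out of 20807 protein-coding genes annotated on these chromosomes.

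ATAC-seq marks DNA that a transposase can reach. The cells were Müller cells, the main glia of the retina, from mice of 6 months, purified on magnetic columns as the fraction that was CD11b-, CD31- and CD29+. One group was labelled WT and is called control here, since the study's methods count wild-type and db/+ mice as controls; the other was db/db, homozygous for the Lepr db mutation of the leptin receptor, on a BKS background, a model of obesity and type 2 diabetes. Both sexes were used and the mice came from 2 suppliers' strains that were interbred, and the db mutation, which disrupts the long form of the receptor, was in every cell of a db/db mouse, not in glia alone. The labels list 2 replicates for each genotype, but there was 1 peak list per genotype, so no difference between the genotypes could be tested, and every interval below is a 95% Wilson interval that covers counting error only. The read depth behind the lists is not given in the sources used here.

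A promoter is the stretch around a transcription start where the polymerase and its general factors assemble, and in an active gene it is usually kept free of nucleosomes. Mammalian promoters fall broadly into those inside CpG islands, which serve many housekeeping genes and are open in most tissues, and CpG-poor promoters, often with a TATA box, which serve genes of one tissue. Many genes have more than 1 promoter, and the choice between them sets the first exon. In bulk cells, fewer cells of a type and a less open promoter in each cell cannot be told apart, so an open promoter means that enough cells of the preparation carried it.

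Promoters of 12 members or genes that the results below turn on are shown first, as the 150 bases upstream of a RefSeq start on GRCm38.p6, 5′ to 3′ on the strand of the gene. Capitals mark any of 14 short strings searched on both strands: the TATA box (TATAAA), the CCAAT box bound by NF-Y (CCAAT), the GC box of SP and KLF factors (GGGCGG), the ETS core (CCGGAA), NRF1 (GCGCATGC), CRE (TGACGTCA), E-box (CACGTG), YY1 (ATGGCGG), AP-1 (TGACTCA), CRX and OTX (GGATTA), an NFI site (TTGGCA), TEAD (GGAATG), SOX (ATTGTT) and the CHR element of cell cycle genes (TTTGAA). Matches of different strings can overlap, and a match is a description of letters, not of binding.
The first 4 stood among the strongest members of a list. They are Ncapg (chr5:45669775-45669924, plus strand), a condensin subunit, Mybl2 (chr2:163054485-163054634, plus strand), a cell cycle transcription factor, Pnpt1 (chr11:29130594-29130743, plus strand), a mitochondrial RNA-processing enzyme, and Ruvbl1 (chr6:88465259-88465408, plus strand), an ATPase of chromatin remodelling complexes.
Ncapg: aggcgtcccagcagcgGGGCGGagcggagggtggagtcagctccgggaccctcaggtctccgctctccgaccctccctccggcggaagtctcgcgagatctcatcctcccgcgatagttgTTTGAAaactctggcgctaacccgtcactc
Mybl2: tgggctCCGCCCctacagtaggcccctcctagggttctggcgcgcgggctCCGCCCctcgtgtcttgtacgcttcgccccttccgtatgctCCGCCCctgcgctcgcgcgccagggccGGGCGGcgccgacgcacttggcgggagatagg
Pnpt1: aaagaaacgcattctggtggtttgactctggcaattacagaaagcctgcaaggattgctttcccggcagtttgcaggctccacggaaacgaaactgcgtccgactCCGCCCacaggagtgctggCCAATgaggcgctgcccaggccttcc
Ruvbl1: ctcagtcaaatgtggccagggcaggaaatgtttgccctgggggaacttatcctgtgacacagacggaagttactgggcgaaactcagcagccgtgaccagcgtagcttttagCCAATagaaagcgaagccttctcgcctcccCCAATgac
Rlbp1 (chr7:79387028-79387177, minus strand), which binds retinaldehyde in Müller cells, and Slc1a3 (chr15:8710808-8710957, minus strand), the glial glutamate transporter, are Müller cell genes open in both lists.
Rlbp1: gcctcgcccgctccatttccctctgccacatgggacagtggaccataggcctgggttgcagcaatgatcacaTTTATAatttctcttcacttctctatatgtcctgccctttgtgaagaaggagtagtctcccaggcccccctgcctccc
Slc1a3: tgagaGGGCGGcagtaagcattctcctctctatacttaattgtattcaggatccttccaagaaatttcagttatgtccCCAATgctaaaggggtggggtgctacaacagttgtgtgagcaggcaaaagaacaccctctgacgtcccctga
Nr2e3 (chr9:59950080-59950229, minus strand), a rod transcription factor, Guca1a (chr17:47400607-47400756, minus strand), a guanylate cyclase activator of photoreceptors, and Samd11 (chr4:156255343-156255492, minus strand), a chromatin-associated protein found in photoreceptors, were open in the control list only. Rdh12 (chr12:79208763-79208912, plus strand), a retinol dehydrogenase of photoreceptors, had the largest fall in percentile within the lists.
Nr2e3: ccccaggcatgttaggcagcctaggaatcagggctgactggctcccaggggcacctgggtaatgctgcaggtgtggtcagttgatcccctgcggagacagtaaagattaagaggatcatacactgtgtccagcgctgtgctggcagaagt
Guca1a: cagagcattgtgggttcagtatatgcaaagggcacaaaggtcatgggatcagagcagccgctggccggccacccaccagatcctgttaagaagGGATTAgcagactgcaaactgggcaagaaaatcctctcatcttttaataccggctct
Samd11: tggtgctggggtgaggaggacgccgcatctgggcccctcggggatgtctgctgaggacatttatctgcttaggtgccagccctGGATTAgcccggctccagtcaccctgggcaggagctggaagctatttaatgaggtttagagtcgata
Rdh12: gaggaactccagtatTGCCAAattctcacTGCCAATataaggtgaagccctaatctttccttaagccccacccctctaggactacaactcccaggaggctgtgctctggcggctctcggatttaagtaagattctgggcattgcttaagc
Ddx19b (chr8:111027771-111027920, minus strand), a helicase of mRNA export, was open in the db/db list only. Alb (chr5:90460720-90460869, plus strand), which encodes albumin and is expressed in liver, was closed in both.
Ddx19b: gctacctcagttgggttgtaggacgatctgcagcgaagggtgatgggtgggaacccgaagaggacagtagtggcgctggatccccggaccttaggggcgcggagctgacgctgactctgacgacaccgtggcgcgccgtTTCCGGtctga
Alb: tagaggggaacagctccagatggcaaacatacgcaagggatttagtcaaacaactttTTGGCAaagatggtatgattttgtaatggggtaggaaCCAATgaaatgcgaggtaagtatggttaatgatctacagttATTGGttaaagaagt

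The cells' identity was checked at the promoters of marker genes. Of 20 Müller cell markers, 18 were open in the control list and 19 in the db/db list; Glul, the glutamine synthetase gene, had in both lists only a region whose summit was also near a start of another gene. Itgb1, which encodes CD29, was open in both lists, at percentile 59.8 in control and 68.5 in db/db, and the genes of the depleted antigens, Itgam (CD11b) and Pecam1 (CD31), were closed in both. Microglial markers were open for 2 of 12 genes in both lists (P2ry12 was 1 of them), endothelial for 4 of 10, pericyte for 2 of 6, and retinal pigment epithelium for 4 of 8. Among markers of retinal neurons, 16 of 20 rod genes, 6 of 10 cone genes, 5 of 12 bipolar genes, 4 of 14 amacrine and ganglion cell genes and 4 of 5 horizontal cell genes were open in control, where 48.5% of all protein-coding genes were. Retinal astrocyte markers, of which some may also be used by Müller cells, were open for 5 of 6 genes in both lists. The study also assumes that the CD29+ fraction holds a few retinal astrocytes, and their part in these values was not tested. Lepr, the mutated gene, was closed in both lists, and the mutation does not remove its promoter, so this checks nothing about the labels. In other tissues' lists, 1 of 11 liver genes, 2 of 12 muscle genes and 1 of 12 testis and oocyte genes were open in control; the last was Dazl, an RNA-binding protein of germ cells, at percentile 97.3.

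Genes with an open single-gene promoter were 48.5% of all (95% interval 47.8 to 49.1) in control and 51.8% (51.1 to 52.5) in db/db. A further 2363 and 2319 genes were reached only by regions near starts of 2 or more protein-coding genes, and 8362 and 7715 genes had no summit within 1000 bp of any start, which is called closed. Across both lists 9991 genes were open in both, 7626 were closed in both, 80 were open in control and closed in db/db, and 697 the other way round. Genes closed in both had a median of 2 annotated starts against 5 for genes open in both, and 2714 of them carried a model or receptor symbol (Gm numbers, Rik clones, Olfr and Vmn genes) against 225 of the genes open in both.

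**Figure D1:**
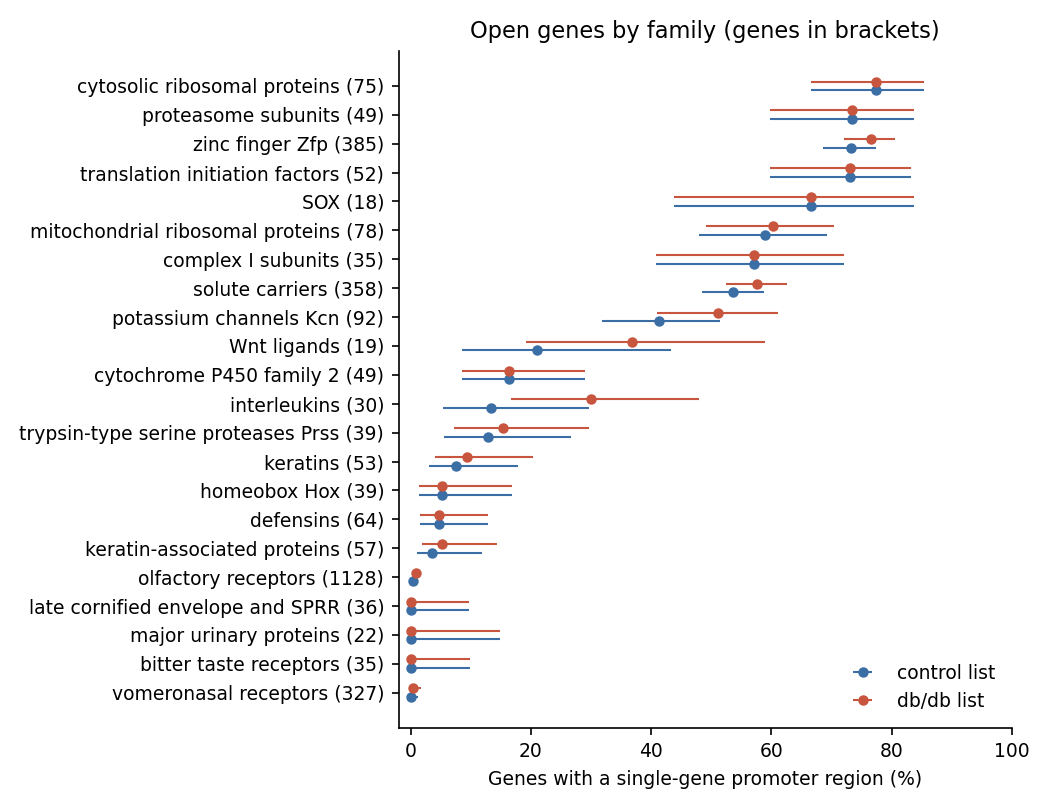
Share of the genes of each family with a single-gene promoter region (x axis, percent) in the control list (blue) and the db/db list (red); points are shares, bars 95% Wilson intervals, and brackets give the genes in the family. Cytosolic ribosomal protein genes stood at 77.3% in both lists and olfactory receptor genes below 1%.

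Most of the housekeeping families looked up had a larger share of open genes than the 48.5% of all genes in control, and families used in other organs were mostly closed. Cytosolic ribosomal protein genes, which build the ribosome, were open for 58 of 75 genes in both lists, proteasome subunits for 36 of 49 and translation initiation factors for 38 of 52. Few genes of these families were closed in both lists, with 3 of 75, 3 of 49 and 3 of 52, so most of the others had a region that served 2 genes. Mitochondrial ribosomal protein genes were open for 46 of 78 genes in control, and 30 more had in each list only a region near 2 or more genes. Complex I subunits were open for 20 of 35 genes in both lists, with 14 more near 2 or more genes, and chaperonin CCT subunits for 3 of 8, with 4 more. At the other end, olfactory receptor genes were open for 5 of 1128 genes in control and 10 in db/db, and vomeronasal receptor genes for 0 and 1 of 327. None of 35 bitter taste receptor, 22 major urinary protein and 36 late cornified envelope and SPRR genes was open in either list; a count of 0 in 22 genes allows a share of up to 13.6%. Families of developmental regulators differed among themselves, with 2 of 39 Hox genes, 12 of 18 SOX genes and 3 of 12 T-box genes open in both lists. KRAB-type and other zinc finger genes named Zfp were open for 282 of 385 genes in control and 295 in db/db, and their median signal percentile in control was 84.4.

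CpG content of the promoter went with being open. RefSeq promoter windows of 300 bases, from 250 upstream to 50 downstream of a start, matched 15573 of 18994 genes by symbol (82.0%), with chromosome 18 left out. The observed to expected CpG ratio was 0.6 or more in 73.6% (72.6 to 74.5) of the 7811 promoters of genes open in both lists, in 9.90% (9.14 to 10.7) of the 5412 promoters of genes closed in both, and in 36.4% of all 31396 windows of the table. That background, used for the strings as well, is a wider set than the 15573 matched genes. In control, 10.3% of genes with a ratio under 0.2 were open, 28.1% between 0.2 and 0.4, 57.3% between 0.4 and 0.6, and 71.1% to 73.8% in the 3 classes above that. The db/db list gave 12.6%, 32.7%, 63.2% and 73.2% to 76.1% for the same classes. Where a CpG-poor promoter was open its signal was lower, with a median percentile of 56.6 in control for ratios under 0.2 against 81.1 for ratios from 0.6 to 0.8.

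**Figure D2:**
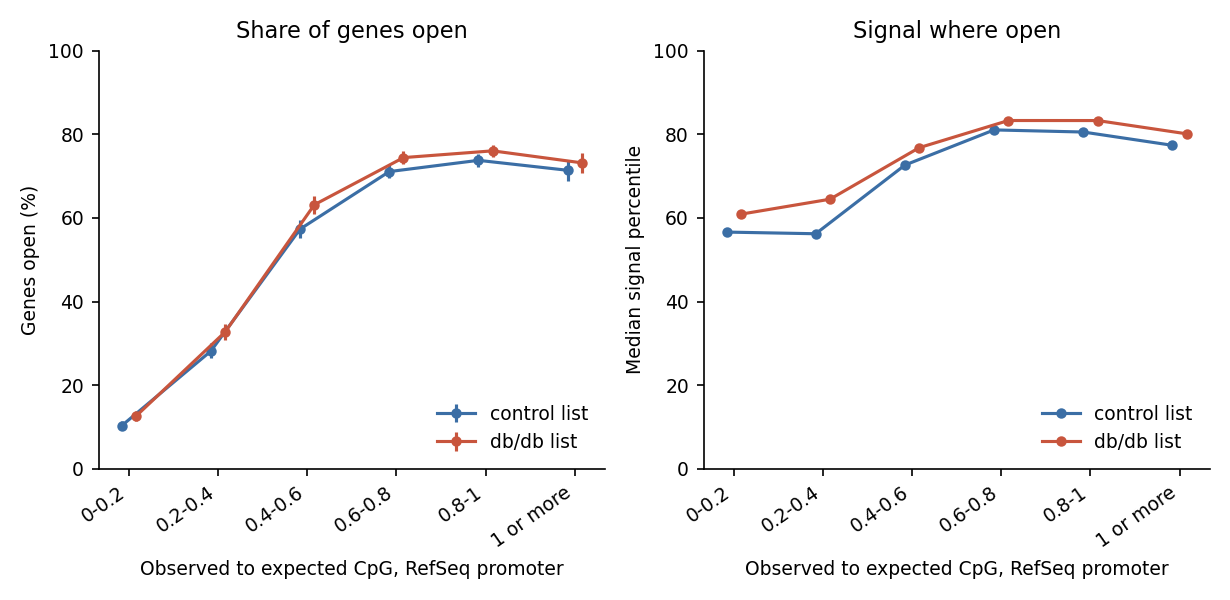
Left, share of genes open (percent, bars 95% Wilson intervals), and right, median signal percentile of the strongest member of the open genes, both by the observed to expected CpG ratio of the RefSeq promoter, for the control (blue) and db/db (red) lists. The open share climbs from 10.3% in the lowest class to 73.8% for ratios of 0.8 to 1 in control and changes little from a ratio of 0.6 on.

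Of the 13 strings planned, 6 were found in a larger share of promoters open in both lists than of promoters closed in both, and all 6 hold CpG dinucleotides. The GC box was in 67.3% (66.2 to 68.3) of open and 17.0% (16.04 to 18.04) of closed promoters, beside 36.0% of all windows, and the ETS core in 25.9% and 5.43%, beside 15.1%. NRF1 (5.57% and 0.573%, beside 2.70%), YY1 (7.55% and 0.998%, beside 4.07%), CRE (3.28% and 0.758%, beside 1.83%) and the E-box (10.2% and 4.38%, beside 7.14%) went the same way. The TATA box was in 6.66% (6.13 to 7.23) of open and 25.1% (24.0 to 26.3) of closed promoters, beside 13.6% of all windows. SOX, NFI, TEAD, AP-1 and CRX strings were likewise in fewer open than closed promoters, for example SOX in 5.59% and 15.7%, beside 10.6%. The median GC content was 61.7% in open and 47.7% in closed promoters, beside 53% in all windows. Base composition was not matched in any of these comparisons of strings. The CCAAT box did not separate these classes (38.2% and 38.4%, beside 37.3%), but it was in 49.7% (47.6 to 51.8) of promoters whose control signal was at or above percentile 90 and in 34.2% (28.5 to 40.4) of those under percentile 10. The CHR string was in 10.7% of open and 24.0% of closed promoters, beside 17.6%. For genes open in 1 list only, fewer than 80% had a sequence (57 of 73 for control and 501 of 662 for db/db), so the comparison of strings is void there and is not given.

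Summits sat just upstream of the start. The median position was -29 bp in control (quartiles -88 and 10) and -27 bp in db/db (-97 and 20), where negative is upstream. In control 65.2% (64.3 to 66.1) of summits lay within 100 bp of a start and in db/db 60.0% (59.2 to 60.8), and 68.3% and 65.4% lay upstream. By the annotation of the gene itself, 43.7% of control summits were outside it, 31.8% in an untranslated exon, 3.26% in a coding exon and 21.2% in an intron, and in db/db 39.9%, 31.5%, 4.26% and 24.3%. A transcript annotated as coding began at the nearest start of 78.0% of control and 75.8% of db/db members. A start of a gene of another type, such as a long noncoding RNA, lay within 1000 bp of 14.0% and 13.4%.

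**Figure D3:**
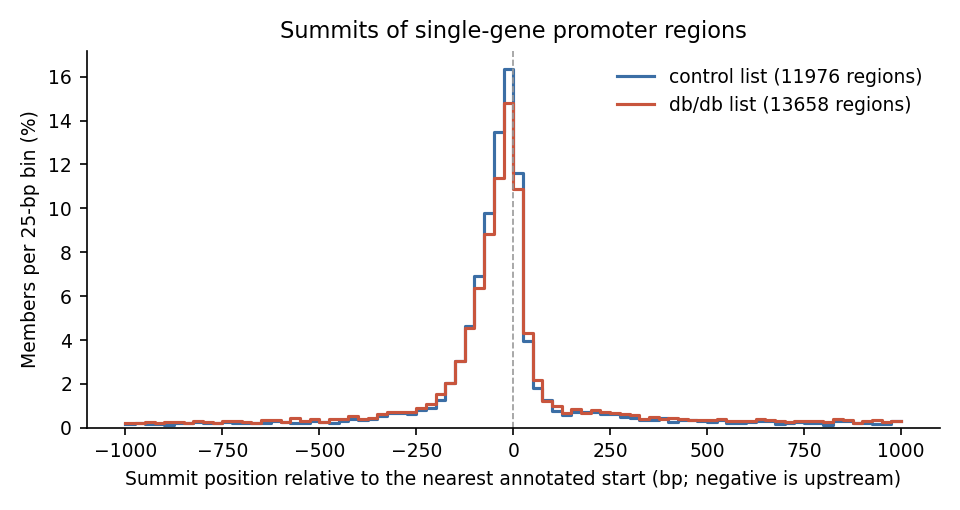
Members per 25-bp bin (y axis, percent of the list's members) by the position of the summit to the nearest annotated start of its gene (x axis, bp, negative upstream), for the control (blue) and db/db (red) lists. Both curves peak in the bins just upstream of the start, with medians of -29 and -27 bp.

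Signal fell with distance from the start. Signal is the deposited fold value of the region, given here as its percentile rank within its own list, because the scaling between lists is not stated. In control the median percentile was 81.0 for summits from 100 to 51 bp upstream and 78.5 for the last 50 bp, against 31.4 beyond 500 bp upstream and 27.2 from 500 to 1000 bp downstream. The db/db list gave 82.6, 81.0, 37.9 and 31.5 for the same bins. At the edge of the rule, the 190 control members in the last 100 bp inside the limit had a median percentile of 30.0 and the 187 regions in the first 100 bp outside it 25.8, and in db/db 296 and 277 regions had 35.4 and 29.8.

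As a group the members were stronger and wider than the other regions. Their median percentile was 69.2 (quartiles 37.4 and 88.5) in control and 70.1 (39.8 and 88.9) in db/db, against 44.7 and 45.4 for all other regions. Members made up 59.1% of the top signal decile of the control list and 49.4% of that of db/db, and 21.7% and 17.2% of the bottom decile. The median width was 924 bp (quartiles 725 and 1156) in control and 895 bp (666 and 1139.8) in db/db, against 671 and 608 bp for the rest. More than 1 row had been merged in 66.0% of control and 62.8% of db/db members, against 43.5% and 40.8% of the rest.

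Width and signal did not run together. In control the median percentile was 12.2 for members under 400 bp, 82.4 for 800 to 1000 bp, and 33.5 for 2000 bp or more, and the db/db list gave 14.3, 83.7 and 44.0. The widest members named here had percentiles from 8.88 to 27.0 in control and from 27.6 to 77.2 in db/db. Trib1, a pseudokinase regulating protein degradation, was the widest in control (2603 bp, 9 rows, percentile 8.88), and measured 2590 bp in db/db at percentile 27.6. Nsd1, a histone methyltransferase, was the widest in db/db (2651 bp, percentile 37.2). Other members among the widest were Msl1, Crlf2 and Atxn2 in control, from 2564 to 2593 bp, and Tfap4 and Sept9 in db/db, at 2491 and 2478 bp. The members merged from most rows had 8 or 9 of them. Beside Trib1 and Sept9 they included Zfp609, Spaca6 and Iqgap2 in control and Mcam, Zbtb10 and Abcd2 in db/db.

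The strongest members were nearly the same in both lists. Cdc25c, the phosphatase that starts mitosis, was first in both, with a fold value of 38.3 in control and 36.6 in db/db and widths of 452 and 442 bp. Zfp960, a zinc finger gene, was second in both (37.8 and 36.2). Pnpt1 had fold values of 34.5 and 34.1, and Ncapg 33.7 and 32.9. Zbed5 (35.7) and Ruvbl1 (33.8) were among the top 6 named members in control only, and Mybl2 (34.8) and Cfdp1 (32.5), a chromatin remodelling factor, in db/db only. Their summits lay between 154 bp upstream and 4 bp downstream of the start. In the sequences above, the Ncapg promoter holds the CHR string close to its start and a GC box farther upstream, the Mybl2 promoter 4 GC boxes, and the Pnpt1 and Ruvbl1 promoters 1 and 2 CCAAT boxes.

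Müller cell markers were open but most were not strong, and their higher percentiles in db/db did not remain when ranks were taken among paired regions alone. In the control list the median percentile of the 18 open markers was 34.4, against 76.3 for the strongest member of all genes open in both lists, 86.9 for cytosolic ribosomal protein genes and 77.9 for 11 ubiquitous genes. Gpr37, an orphan receptor of glia, stood at 74.4 in control and 82.7 in db/db and Clu, the secreted chaperone clusterin, at 67.0 and 74.3. Sox9, a transcription factor of glia, had 42.6 and 55.6, Rlbp1 32.2 and 51.1, and Kcnj10, the glial potassium channel, 32.4 and 46.6. Aqp4, the water channel, had 9.63 and 23.0, Slc1a3 4.59 and 6.27, and Hes1, a Notch target, 2.65 and 7.57. Abca8a, a lipid transporter, was the marker open in db/db only, at percentile 14.9. In the sequences shown, the summit of Slc1a3 lay within 3 bases of the RefSeq start in both lists, and that of Rlbp1 142 and 132 bases inside the gene.

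Whether a member was found in both lists was the first comparison of the genotypes. In control 214 of 11976 members (1.79%, 1.56 to 2.04) overlapped no db/db region by 1 bp, where over all control regions 4.07% did not. In db/db 1780 of 13658 members (13.0%, 12.5 to 13.6) overlapped no control region, where over all db/db regions 31.4% did not. The regions that were not members gave 4.89% (4.66 to 5.13) and 36.4% (36.0 to 36.8). The imbalance between the lists moved with their length. The rows of both lists went down to a -log10 p of 2.00, but values over the regions were lower in db/db. There the first percentile of -log10 p was 21.3 and the median 98.6, against 34.1 and 136.9 in control. With the db/db list shortened to the 45198 regions of lowest p, 5.71% (5.31 to 6.14) of control and 4.86% (4.49 to 5.26) of db/db members were in 1 list only, and 15.7% and 15.8% of the other regions. The members' share stayed below that of the other regions at this length.

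The share in 1 list only was smaller among members than among other regions in each of the 10 signal deciles of both lists, a difference that had no replicate check. In the lowest decile of the control list the share was 8.55% for 983 members and 11.5% for 3537 other regions, and in the fifth decile 1.69% and 3.14%. In db/db the lowest decile gave 53.7% and 73.1% and the fifth 16.1% and 36.4%. Within each decile the members were also wider, with medians in the fifth of 974 against 678 bp in control and 884 against 609 bp in db/db. The share differed by width, from 49.2% of db/db members under 400 bp to 3.37% from 1200 to 1500 bp. Width was not matched in this comparison. In the highest decile 0 of 2672 control members, which allows a share of up to 0.112%, and 3 of 3140 db/db members were in 1 list only. The members in 1 list only were weak and narrow, with median percentiles of 13.5 in control and 18.998 in db/db and median widths of 485.5 and 555 bp. Distance went with it as well, since 1.22% of control and 7.58% of db/db members within 100 bp of the start were in 1 list only, against 5.03% and 31.5% beyond 500 bp.

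**Figure D4:**
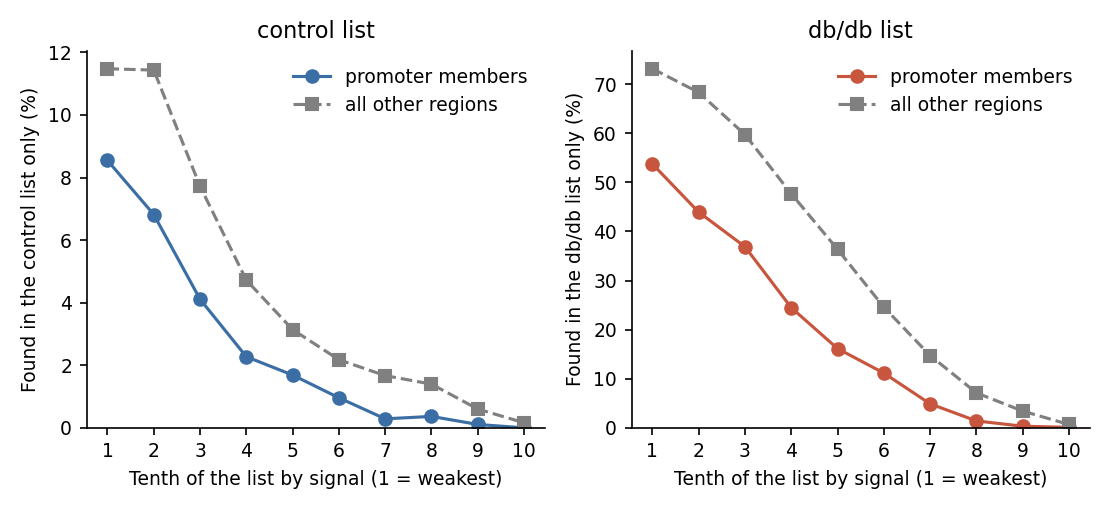
Share of regions found in 1 list only (y axis, percent, separate scales) by signal decile of the list (x axis, 1 weakest) for promoter members (coloured circles) and all other regions (grey squares), in the control list (left) and the db/db list (right). Members lie below the other regions in every decile, from 8.55% against 11.5% in the first control decile and from 53.7% against 73.1% in the first db/db decile.

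More members in 1 list only belonged to genes with a member in the other list than to genes closed there. Of the 1780 in db/db, 965 (54.2%) belonged to a gene that had a member in control, with a median distance of 348 bp to the nearest start, and 736 (41.3%) to a gene closed in control, with 106.5 bp. Of the 214 in control, 130 belonged to a gene open in db/db and 78 to a gene closed there. The strongest in control only was Samd11 (percentile 83.9, 753 bp, chr4:156255063-156255815), whose nearest db/db region was 7700 bp away. The others named, from percentile 81.8 down to 70.6, were at genes that had another region near a start in db/db: Sugp2 and Gigyf2, which act in RNA processing and translation, Btbd10, Tctex1d1 and Lima1, an actin-binding protein, all with summits in introns of the gene. In db/db only, the strongest were Rpgrip1l, a protein of the ciliary transition zone (93.3), Ddx19b (91.8), Tnks, the poly-ADP-ribose polymerase tankyrase (90.5), Ints4 of the Integrator complex (87.3), Cmtm7 (87.0) and Ptdss1, a phosphatidylserine synthase (85.8).

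Genes open in 1 list only had weak members. The median percentile of the strongest member was 16.4 for the 80 genes open in control only and 27.1 for the 697 open in db/db only, against 76.3 and 80.9 for genes open in both. At equal list lengths these counts were 293 and 270. Samd11 led the genes open in control only, followed by BC051019 (56.3), Slc29a4, a monoamine transporter (54.4), Brinp1, a neuronal cell cycle inhibitor (51.3), Cd22, a lectin of B cells and microglia (48.4), and Kcnv2, a potassium channel subunit of photoreceptors (47.3). In db/db the leading genes were Ankrd22 (93.7), Ddx19b (91.8), Ccdc39 (82.2) and Rsph4a (78.7), both components of motile cilia, Zfp759 (79.6) and Zfp385c (78.2). The Ankrd22 and Zfp385c members overlapped a control region whose summit lay more than 1000 bp from the start, as did 15 of the 697 genes, so these were not absent from the control list. Among families, interleukins were open for 4 of 30 genes in control and 9 in db/db, potassium channels for 38 and 47 of 92, and solute carriers for 192 and 206 of 358. At equal list lengths these were 4 and 6, 38 and 39, and 192 and 189.

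Fewer rod promoters were open in db/db, while more promoters were open in all. The 20 rod markers were open for 16 genes in control and 11 in db/db, with 6 lost and 1 gained. The 6 were Cnga1 and Pde6b, subunits of the rod channel and phosphodiesterase (percentiles 20.1 and 28.1 in control), Nr2e3 (10.3), Pde6g (11.6), Guca1b (29.0) and Guca1a (11.7), and the gene gained was Rp1 (22.8 in db/db). The strongest Pde6b summit in control and the Rp1 summit in db/db lay away from the start, 976 and 808 bp downstream. At equal list lengths the rod counts were 16 and 4, with 12 genes open in control and closed in db/db, where the Müller counts were 18 and 19. Over all genes, 293 of the 10082 open in control were closed in the shortened db/db list. Shortening took weak regions from the db/db list alone: its lowest -log10 p was 57.4, against 2.10 in control. Of 9 rod genes with a region paired 1 to 1 across the lists, Gnb1, a transducin subunit, went from percentile 66.0 to 41.0, Sag, the rod arrestin, from 48.2 to 30.0, and Slc24a1, the rod exchanger, from 33.8 to 13.9. Cngb1 rose from 64.2 to 78.5, at a region 811 bp upstream of the start. Gnat1, rod transducin, rose from 6.98 to 37.5, at a region 301 bp inside the gene. Other neuronal markers went both ways. The cone gene Gnat2 and the bipolar gene Isl1 were open in control only, at percentiles 22.1 and 36.0, and the amacrine and ganglion cell markers Slc6a9 and Tfap2a in db/db only, at 6.60 and 31.9. The 4 paired bipolar markers stood higher in db/db on both rankings, with a median of 7.57 points among the pairs. Of 5 paired cone markers, 1 stood higher among the pairs, Gnb3 (percentiles 41.7 and 78.1), and 4 lower. The cone median was -3.59 points (8.06 within the lists). Of 4 paired amacrine and ganglion cell markers, 3 stood higher among the pairs, with Gad2 (8.89 and 56.1) 1 of them. The other, Slc17a6, stood lower by 16.4 points (-16.4). The study names photoreceptors as possible admixture of the purified fraction, and the part of the number of photoreceptors in these values was not tested.

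Members paired 1 to 1 across the lists allowed a comparison of rank. Of the control members 11482 had exactly 1 db/db partner that overlapped no other control region, and in 11459 pairs (99.8%) both regions belonged to the same gene. The summits moved little, by a median of 8 bp, and 93.8% were within 50 bp of each other. By percentile within each list, the median change from control to db/db was 4.33 points (quartiles 0.26 and 11.9), against 8.56 over all 42625 pairs. A rise of over 10 points was seen in 3431 pairs (29.9%) and a fall of over 10 points in 224 (1.95%), where over all pairs 44.7% rose and 2.27% fell by that much. These rises follow in part from the construction, since the longer db/db list puts more weak regions under every pair. Ranked among the pairs alone, the members' median change was -0.79 points (quartiles -5.49 and 2.51), with 813 pairs (7.08%) up and 1452 (12.6%) down by over 10 points, where over all pairs 13.3% were up and 12.8% down. The sign of the median change therefore depends on the ranking, and the members stood below the other pairs under both (10.1 and 0.64 points for pairs that were not members).

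Split by starting rank, the members' median change was below that of other pairs in every class of 20 points. Among pairs with control ranks from 60 to 80, the median change on the pairs' own ranking was -2.86 points for 2374 members and -0.17 for 6151 others, and from 40 to 60 it was -1.43 and 0.25. Under rank 20 the medians were 0.95 and 1.42. In 4 housekeeping families most genes stood lower in db/db on the pairs' own ranking. These were 46 of 57 cytosolic ribosomal protein genes, 28 of 34 translation initiation factors, 33 of 46 mitochondrial ribosomal protein genes and 26 of 36 proteasome subunits. Their medians were -3.48, -2.37, -2.96 and -1.99 points. The families started high, at median control percentiles of 87.5, 88.9, 84.4 and 89.8, and were not matched to pairs of their own rank. All members with control ranks from 80 to 100 had a median change of -1.15 points (quartiles -4.46 and 0.44). Most of them therefore stood lower too, and their exact share was not counted. By percentile within each list the same 4 families had median changes of 0.20, 0.32, 0.60 and 0.12 points, so here too the sign depends on the ranking. Of the 18 paired Müller markers 9 stood higher and 9 lower, with a median of -0.01 (13.1 within the lists), and of 9 rod genes 6 stood lower, with a median of -7.97 (-0.39 within the lists).

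The 6 largest falls started from control percentiles of 70.3 to 91.5 and the 6 largest rises from 15.4 to 27.9. Rdh12 fell from percentile 78.5 to 21.9, Mef2c, a transcription factor of neurons and muscle, from 79.8 to 23.6, and Mff, a mitochondrial fission factor, from 88.5 to 33.0. Zfyve27 (91.5 to 38.3), Rims2, a scaffold of synaptic release sites (70.3 to 18.5), and Pcbp2 (79.5 to 27.9) completed the 6 largest falls. The summits of these 6 pairs were within 18 bp of each other, and all 6 regions were narrower in db/db, Zfyve27 by most (876 and 308 bp). The largest rises were at Lpar3, a lysophosphatidic acid receptor (27.9 to 85.7), Smpd4, a sphingomyelinase (22.3 to 78.8), Ckm, muscle creatine kinase (20.2 to 75.03), Stac (15.4 to 69.7), Plekha5 (25.5 to 78.5) and Tex26 (24.4 to 76.4). Ranked among the pairs alone, the 6 falls ran from -60.9 to -70.7 points and the 6 rises from 42.5 to 53.0. The pairs were chosen for the size of their change, so their direction on this ranking is no separate check.

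The study asked about the glucocorticoid receptor, a hormone-activated transcription factor, so its classical targets were looked up. Of 12 classical targets 10 were open in both lists, and Tat and Pck1, which serve the liver, were closed in both. Fkbp5, a chaperone partner of the receptor, was at percentile 99.1 and 98.8, Per1, a clock gene, at 25.1 and 36.9, Klf9 at 6.02 and 14.0, and Mt1, a metallothionein, at 57.3 and 65.9. Ranked among the pairs alone, 3 of the 10 stood higher and 7 lower, with a median of -3.21 points, where the percentiles within the lists gave a median of 8.23. Of 10 paired ubiquitous genes 2 stood higher and 8 lower, with a median of -4.82 (3.28 within the lists). Over all paired members the median among the pairs was -0.79 points, so most of them stood lower too. The receptor gene itself, Nr3c1, was open in both, at 34.2 and 43.0 within the lists but lower in db/db by the ranking among pairs (-6.27 points), with 2 members in each list.

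Genes with more than 1 member, which can stand for alternative promoters, were 1469 of 10082 open genes in control (14.6%, 13.9 to 15.3) and 2088 of 10773 in db/db (19.4%, 18.6 to 20.1). With the db/db list shortened to the length of the control list its share was 14.5%. In 1226 of the control genes (83.5%) and 1658 of the db/db genes (79.4%) the nearest starts of the members lay over 1000 bp apart, while in 109 (7.42%) and 177 (8.48%) the members had the same nearest start, so they do not mark separate starts. The starts of such a gene's members spanned a median of 16489 bp in control and 13263 bp in db/db, and these genes had a median of 7 annotated starts against 4 for genes with 1 member. The member farthest upstream was the strongest in 59.0% (56.4 to 61.4) of them in control and 59.6% (57.5 to 61.7) in db/db. Members further along the gene were weaker, with median percentiles of 31.7 against 54.0 in control and 36.7 against 59.9 in db/db, and narrower, at 722 against 929 bp and 665 against 896 bp. They were also more often in 1 list only than the members farthest upstream, with 5.39% against 1.91% in control and 28.7% against 11.1% in db/db. Over all regions these shares were 4.07% in control and 31.4% in db/db. Genes with 1 member had stronger ones, with medians of 77.0 and 79.9.

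The genes with most members had between 5 and 9 of them in a list. Frmd4b, a scaffold at cell junctions, had 9 members in control and 8 in db/db over chr6:97291071-97488657 in control, of which the one farthest upstream that both lists held was the strongest in both (percentile 61.5 in control and 77.6 in db/db). A further member of db/db, at chr6:97616654-97617800, lay upstream of all of them. The weakest Frmd4b member in control stood at percentile 0.69. Iqsec1, an exchange factor for ARF GTPases, had 7 members in each list, the strongest at 71.0 in control and 70.2 in db/db, at different starts: the first at chr6:90988541-90989386 and the second at chr6:90715928-90716741. Tcf4, a basic helix-loop-helix factor, had 8 in control and 7 in db/db. Ablim1, an actin-binding protein (6), and Ahcyl2 (5) completed the control genes, and Abr, a regulator of small GTPases (7), and Pde4b, a cyclic AMP phosphodiesterase (7), those of db/db. The members of 1 gene share its locus and are not independent of each other.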

How the data were processed

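ATAC-seq peak lists of control and db/db Müller cells were used, 1 list per genotype; the second replicate that the labels name for each genotype and the RNA-seq samples were not analysed here. The deposited lists give, per row, a display score, a signal value read as a fold enrichment ratio over background, and −log10 p and −log10 q, all made by the authors' peak caller. The build is mm10 per the submitters' processing notes; the caller, its threshold, the depth and whether replicates were pooled are not given in the sources used here. Overlapping rows on chromosomes 1 to 19 were merged, and each merged region took its summit, fold and p from its strongest row by fold. A summit within 1000 bp of starts of exactly 1 protein-coding gene (GENCODE M21, 90310 starts) made a member. Signal was ranked as a percentile within each list. Lists were compared by an overlap of 1 bp, and members paired where exactly 1 region overlapped on each side; a change over 10 percentile points was counted. No test between genotypes was possible. Shares carry Wilson intervals at 95%, and intervals and limits from a count of 0 (3 counts of the total) cover counting error only. Promoter sequences are from RefSeq (GRCm38.p6), matched by symbol to genes RefSeq lists as protein-coding, chromosome 18 left out. The members and gene lists were chosen with earlier results of these data known. Named were the 6 strongest members, the 6 strongest in 1 list only, the 6 strongest genes open in 1 list only, the 5 widest, the 5 with most rows and the 5 genes with most members per list, the 6 largest rises and falls, and genes of the marker and family lists; gene models (Gm numbers, Rik, Olfr, Vmn) were counted but not named. Alternatives covered the starts used, distances of 500 and 2000 bp, merging, −log10 q of at least 5, equal list lengths and the overlap; ranks among pairs, the CHR string and the RefSeq gene set were chosen after seeing the data. Assignment and overlap were tested on simulated lists (6 of 6 checks passed). Python 3.11.15, pandas 2.3.3, numpy 2.4.6, scipy 1.17.1, statsmodels 0.14.6 and matplotlib 3.10.9 were used. Single-gene values of a few genes that these rules would name are not reported here; the counts include them.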

Additional observations from a re-analysis of the deposited data

How the results depend on the processing

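No paired analysis was possible because each genotype had 1 peak list, and no replicate could be left out for the same reason. The 16 values recomputed kept within their limits with a −log10 q of at least 5, with an overlap of at least 50% of the shorter region, and without Gm and Rik symbols; taking the row with the highest fold as the extent could change nothing that was computed. The open genes in each list and the genes closed in both stayed within 1.5 times under every alternative. The median change in percentile of paired members, 4.33 points, became -1.65 with the db/db list shortened to the number of control regions and -0.79 with ranks among the pairs only; both put the lists on equal lengths.
In the shortened list the share of members in 1 list only was 5.71% in control and 4.86% in db/db, genes with 2 or more members made up 14.5% of open genes in db/db, and the db/db members' median width was 932 bp and median percentile 66.0. With starts of coding transcripts only, the shares in 1 list were 1.45% and 10.6%, genes with 2 or more members 9.64% and 13.2%, widths 942 and 919 bp, percentiles 71.8 and 73.2, and the median change 3.94, for control and db/db in turn. With the gene start only, these were 1.09% and 8.05%, 2.31% and 4.38%, 957 and 940.0 bp, 75.5 and 77.3, and 3.47, and the median summit positions were -17 and -13 bp. At 500 bp they were 1.44% and 10.4%, 10.3% and 13.5%, 937 and 918 bp, 72.6 and 74.3, and 3.89. At 2000 bp they were 2.21% and 16.3%, 20.9% and 27.6%, 893 and 849 bp, 64.6 and 64.7, and 4.89. With exactly 1 gene of any type, widths were 910.0 and 879 bp, the db/db share in 1 list 13.8% and the db/db percentile 69.1. With every row as its own region there were 25682 and 28227 members, with 1.27% and 10.3% in 1 list, 73.2% and 73.0% of genes with 2 or more, summits at -8 and -6 bp, widths of 1061 and 1041 bp, percentiles of 47.6 and 51.5 and a median change of 1.47. The number of planned strings more frequent in open promoters was 6, and 7 with the given strand only or with lists of equal length.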

Other observations

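Potassium channel genes stood mostly higher in db/db, unlike the housekeeping families in the same pairs, and they started from a lower rank. Their median control percentile was 60.3, against 84.4 to 89.8 for the 4 housekeeping families above, and starting rank was not matched. Over all paired members the median change was -0.79 points on the ranking among pairs. It was -2.86 for members with control ranks from 60 to 80 and -1.43 from 40 to 60. Of smaller families, olfactory receptors had 4 of 5 and Wnt ligands 3 of 4 pairs higher, and SOX genes 4 of 12. Of 35 paired members at potassium channel genes, 23 stood higher in db/db and 12 lower on the ranking among pairs. Their median was 3.74 points, and the percentiles within the lists gave 12.7. Solute carrier genes had 75 higher and 105 lower of 180, with a median of -0.93 points (3.86 within the lists), and zinc finger Zfp genes 108 higher and 172 lower of 280, with a median of -1.08 (2.55 within the lists). These lists were chosen with earlier results known, and no test of the difference between them was made.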
